A study of Oreochromis niloticus with 6 samples.

Results

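Liver RNA of GIFT, a farmed strain of Nile tilapia (Oreochromis niloticus), was examined for the genes that carry or store oxygen and for the hormone that controls red cell production: myoglobin (Mb), erythropoietin (epoa), cytoglobin, neuroglobin and the alpha and beta haemoglobins. Loci were taken by gene name, namely mb, epoa and every name that begins with cygb, ngb, hba or hbb. This gave 6 of the 31872 loci of the table: Mb, epoa, cygb1, hbbe2 and 2 loci named hbae3 (1 of many), where the words in brackets mark a gene with several copies that may share reads. No locus was named ngb. A further 8 loci carried the Gene Ontology annotation of the haemoglobin complex under other names, and they are described beside the named ones because they held nearly all of the haemoglobin RNA. The 6 libraries were sampled at 96 h. In the control group (CG, numbered 1 to 3) the dissolved oxygen (DO) was 5.0 mg/L, and in the hypoxic stress group (HG, numbered 1 to 3) nitrogen was bubbled in to reach a DO of 0.7 to 0.8 mg/L by the labels. The study's text gives the HG a lower DO than the labels do. Neither the labels nor the methods say whether a library held the liver of a single fish or of several, so the p-values measure the spread between these libraries.

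Myoglobin is an oxygen-storing haem protein, best known from heart and red muscle, and in several fishes its RNA has also been found in liver and other organs. Haemoglobin is the tetramer of alpha and beta chains that fills red cells, and fish red cells keep a nucleus and can carry much globin RNA, so haemoglobin RNA in a liver sample can come from the blood in it. Cytoglobin is a globin of fibroblast-like and stellate cells, neuroglobin one of nerve cells. Erythropoietin is a secreted hormone that drives red cell formation, and its gene is a textbook target of the hypoxia-inducible factors (HIF), which are destroyed when oxygen is plentiful.

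Levels are given as FPKM, read fragments scaled to transcript length and to the mapped fragments of the library, so levels of different genes can be compared per length. Each difference is HG minus CG in mean log2(FPKM + 1), a scale that shrinks differences at low levels, with the standard error (SE) from limma, a linear model fitted to the 16423 loci whose mean reached 1 FPKM. The p-values of that fit were adjusted by the Benjamini-Hochberg method, and a locus is called higher or lower at an adjusted p under 0.05. By that rule 8.27% of tested loci were higher and 12.1% lower in HG, 20.4% in all. With a log2 difference of at least 1 in addition, 1155 loci (7.03%) were higher and 1567 (9.54%) lower, 16.6% in all, which makes 42.4% of these calls higher, against 54.3% after median-of-ratios scaling. That scaling moved the median difference of all tested loci from -0.14 to 0.00.

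The labels were set against a list of HIF target genes, since these genes are known to be induced by low oxygen. The list was written with earlier results of these data known, so it was not a blind check. Of 30 tested loci of that list, 24 were lower and 1, pdk1, was higher in the libraries labelled HG. Over all tested loci 12.1% were lower and 8.27% higher. The median difference of the list was -2.19 (log2), and some genes count through several loci. The summed level of the list ranged from 3567 to 6504 FPKM in CG and from 248 to 340 FPKM in HG. The igfbp1b locus MSTRG.589 alone held 3400, 1484 and 2000 FPKM in CG and 49.3, 32.2 and 21.3 FPKM in HG. The direction of the list is the opposite of the one known for low oxygen, and its cause was not tested. CG and HG therefore stand below for the libraries labelled so. Among the libraries, CG-1 had 0.987% of its summed FPKM in haemoglobin loci, against 0.0883% in CG-2 and 0.143% in CG-3, and the main haemoglobin results are given with and without it.

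Myoglobin was the most abundant member by far in CG, and its level was much lower in HG. Its RNA (locus MSTRG.10471) stood at 2018 FPKM in CG-1, 2834 in CG-2 and 1869 in CG-3. The same locus stood at 73.9 FPKM in HG-1, 40.0 in HG-2 and 63.9 in HG-3. The groups were far apart, with the lowest CG library well above the highest HG library. The mean was 2241 ± 519 FPKM in CG and 59.3 ± 17.4 FPKM in HG (SD, n = 3 each), and Mb fell by 5.24 on the log2 scale (SE 0.30, adjusted p = 0.000811 by limma). Among all loci of a library Mb ranked between 21 and 28 in CG and between 598 and 951 in HG. In CG it made up 0.388 to 0.574% of the summed FPKM.

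The study designed a primer pair for myoglobin for qRT-PCR, shown here because it defines the transcript that the study followed as MB. No sequence was at hand to match the pair to the Mb locus of the table, and the qRT-PCR values were not analysed here. The pair, each 5′ to 3′ in lower case, is:
MB forward: gacacccagtgagcccatac
MB reverse: ggtgacccttaaagagcctga

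Erythropoietin RNA was low in every library and lower in HG. The locus named epoa (MSTRG.21579) stood at 4.42 FPKM in CG-1, 11.2 in CG-2 and 7.29 in CG-3. It stood at 0.735 FPKM in HG-1, 0.335 in HG-2 and 0.459 in HG-3. The groups did not overlap, and each HG library was below 1 FPKM. The mean was 7.64 ± 3.40 FPKM in CG and 0.510 ± 0.205 FPKM in HG (SD, n = 3 each), and epoa fell by 2.45 on the log2 scale (SE 0.32, adjusted p = 0.00424 by limma). CG-1 held the lowest of the 3 CG levels of epoa, at 0.395 times that of CG-2.

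Cytoglobin differed less, and its groups overlapped. The locus cygb1 (MSTRG.16919) stood at 12.2 FPKM in CG-1, 10.4 in CG-2 and 13.0 in CG-3, and at 12.8 in HG-1, 5.69 in HG-2 and 3.19 in HG-3. HG-1 lay among the CG libraries, while HG-2 and HG-3 lay below all of them. The difference of -0.82 (log2, SE 0.42) did not pass the test (adjusted p = 0.212 by limma).

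The named haemoglobin loci were weakly expressed. The beta-chain locus hbbe2 (MSTRG.1263), whose zebrafish namesake is an embryonic beta globin, stood at 37.8 FPKM in CG-1, 14.3 in CG-2 and 7.38 in CG-3. It stood at 1.22 FPKM in HG-1 and 0.445 in HG-3 and was listed at 0 in HG-2. The groups did not overlap, and hbbe2 fell by 3.53 on the log2 scale (SE 0.58, adjusted p = 0.00883 by limma). Both loci named hbae3 (1 of many) were under the minimum level and were not tested. One of them (ENSONIG00000001517) ranged from 0.167 to 0.346 FPKM in CG and from 0 to 0.139 FPKM in HG, the other (MSTRG.4615) from 0 to 0.0108 FPKM in CG and from 0.109 to 0.214 FPKM in HG. The 2 copies thus lay on opposite sides, at levels near the floor of the table.

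Of the 6 named loci, 4 were tested. Mb, epoa and hbbe2 were lower, none was higher, and cygb1 did not pass. In the table as a whole 12.1% of tested loci were lower by the same rule, and the groups did not overlap at 43.5% of them, with HG lower at 27.0% and higher at 16.5%.

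**Figure D1:**
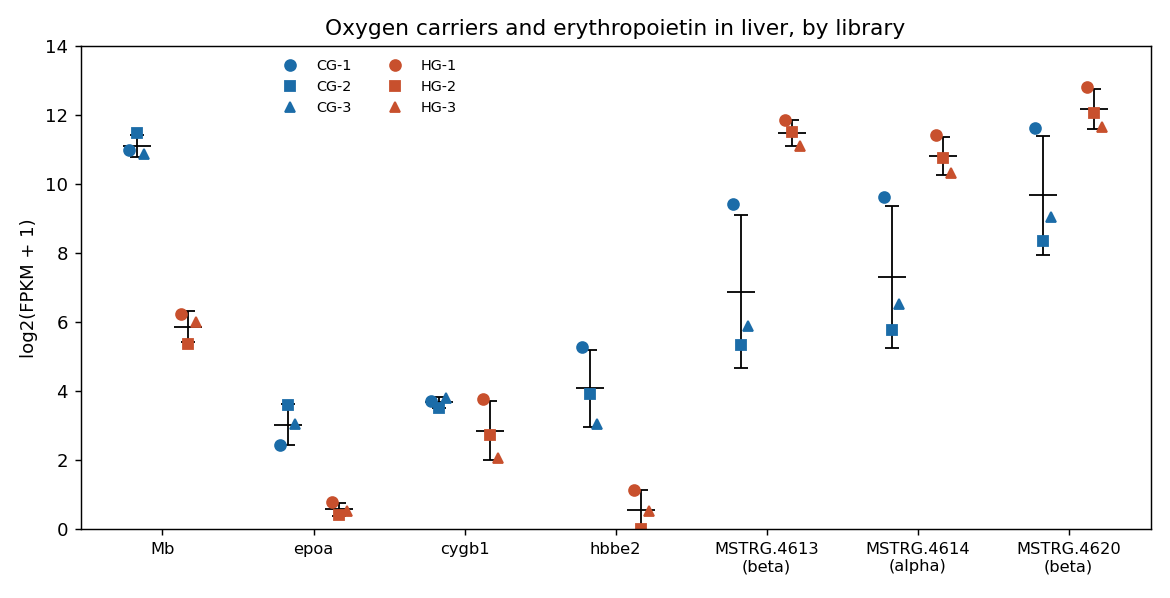
Level of each tested member and of the 3 abundant haemoglobin loci, as log2(FPKM + 1), in each of the 6 libraries. Points are libraries, blue for CG and red for HG, and black marks are the mean and the SD of 3 libraries. Mb, epoa and hbbe2 are lower in all HG libraries, cygb1 overlaps, and the haemoglobin loci MSTRG.4613, MSTRG.4614 and MSTRG.4620 are higher in all HG libraries, with CG-1 well above CG-2 and CG-3.

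The haemoglobin RNA of these livers came almost wholly from 3 loci that bear no hba or hbb name. Of 11 loci annotated with the haemoglobin complex, 6 were annotated as alpha and 5 as beta chains. The 3 abundant loci, MSTRG.4613 (ENSONIG00000001457, beta), MSTRG.4614 (si:xx-by187g17.1, alpha) and MSTRG.4620 (ENSONIG00000001489, beta), held 96.4 to 99.1% of the haemoglobin FPKM in CG and over 99.9% in HG. By their assembled locus numbers all 3 lie in one run, between nprl3, a gene that borders the alpha globin cluster in many vertebrates, and kank2. The low loci hbbe2, zgc:163057 and hbz lie in a second run, beside rhbdf1b. For this second run, the RefSeq table of the O_niloticus_UMD_NMBU assembly places hbbe2 between hbae5 and hbae4, with rhbdf1b after hbae4.

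The abundant loci lay on the other side from myoglobin, with higher levels in HG. MSTRG.4613 stood at 685 FPKM in CG-1, 39.4 in CG-2 and 58.9 in CG-3, and at 3676 in HG-1, 2913 in HG-2 and 2182 in HG-3. The groups did not overlap, but CG-1 was far above the other CG libraries. The locus was higher in HG by 4.59 on the log2 scale (SE 1.0, adjusted p = 0.0224 by limma).

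The alpha-chain locus MSTRG.4614 stood at 796 FPKM in CG-1, 53.8 in CG-2 and 91.6 in CG-3, and at 2718 in HG-1, 1729 in HG-2 and 1269 in HG-3. It showed the same order of libraries, and was higher in HG by 3.51 (log2, SE 0.95, adjusted p = 0.043 by limma). The most abundant of the 3, MSTRG.4620, stood at 3164 FPKM in CG-1, 327 in CG-2 and 531 in CG-3, and at 7196 in HG-1, 4300 in HG-2 and 3237 in HG-3. CG-1 nearly reached HG-3, and the difference of 2.50 (log2, SE 0.82) did not pass (adjusted p = 0.0729 by limma).

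These calls changed with the libraries included, while the differences stayed higher in HG. Without CG-1 all 3 loci were higher, by 5.86 (adjusted p = 0.00285), 4.67 (adjusted p = 0.00599) and 3.48 (adjusted p = 0.0104, limma) for MSTRG.4613, MSTRG.4614 and MSTRG.4620. Without CG-2 or CG-3, or without any single HG library, the calls of MSTRG.4613 and MSTRG.4614 were lost. With each library left out in turn, the adjusted p ranged from 0.00285 to 0.0799 for MSTRG.4613 and from 0.00599 to 0.132 for MSTRG.4614, with the difference at 3.82 to 5.86 and at 2.74 to 4.67. In bulk tissue, more red cells and more haemoglobin RNA per red cell cannot be told apart.

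The other annotated haemoglobin loci were near the floor and were not tested. The alpha-chain locus zgc:163057 (MSTRG.1262) ranged from 0.130 to 0.563 FPKM in CG and from 0.885 to 1.43 FPKM in HG. The locus hbz (MSTRG.1264) ranged from 0.562 to 1.74 FPKM in CG and from 0 to 0.919 FPKM in HG. The beta-chain locus ENSONIG00000001515 ranged from 0.156 to 0.549 FPKM in CG and was listed at 0 in each HG library. MSTRG.4616 and MSTRG.4618 stayed under 0.44 FPKM in every library. The low haemoglobin loci therefore did not share one direction.

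Myoglobin was then set against haemoglobin as a check on blood in the sample. The summed FPKM of the 11 haemoglobin loci was 4686 in CG-1, 436 in CG-2 and 690 in CG-3, and 13594 in HG-1, 8943 in HG-2 and 6690 in HG-3. CG-1 thus held 10.8 times the haemoglobin RNA of CG-2, while its Mb level was 0.712 times that of CG-2. Against CG-3 the ratios were 6.79 for haemoglobin and 1.08 for Mb. Within CG, then, a wide range of haemoglobin RNA went with a narrow range of Mb. Between the groups the mean haemoglobin sum was 5.03 times as high in HG, and 17.3 times without CG-1, while Mb was lower in every HG library. The ratio of summed haemoglobin to Mb was 2.32, 0.154 and 0.369 in CG and 184, 224 and 105 in HG, in the order of library number.

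On the log2 scale the difference of Mb and summed haemoglobin was -1.21, 2.70 and 1.44 in CG and -7.50, -7.77 and -6.69 in HG. The groups did not overlap and their means differed by -8.29, with p = 0.1 by a two-sided exact permutation test, the smallest p that 3 against 3 libraries allow. Without CG-1 they differed by -9.39 (exact permutation p = 0.1). With the sum restricted to the loci named hba or hbb, which hbbe2 dominates, the values were 5.69, 7.51 and 7.77 in CG and 4.89, 5.03 and 5.38 in HG. The difference was then -1.89 (exact permutation p = 0.1), and it depended on the pseudocount, being -0.77 (exact permutation p = 0.4) with a pseudocount of 0.1. Mb and hbbe2 were both lower in HG, and the abundant haemoglobin loci lay on the opposite side.

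**Figure D2:**
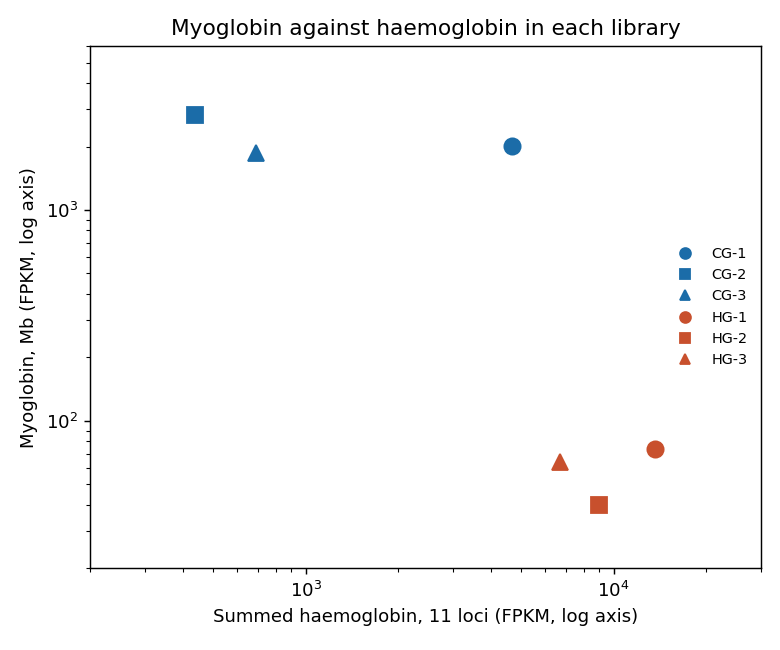
Mb level against the summed level of 11 haemoglobin loci, both in FPKM on log axes, with 1 point for each library (blue CG, red HG). CG-1 holds 10.8 times the haemoglobin of CG-2 at a similar Mb level, and the HG libraries lie at the lower right, with high haemoglobin and 40.0 to 73.9 FPKM of Mb.

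The 3 abundant haemoglobin loci did not change in proportion. The beta locus MSTRG.4620 had 4.62, 8.30 and 9.02 times the FPKM of the beta locus MSTRG.4613 in CG, and 1.96, 1.48 and 1.48 times in HG. The groups did not overlap, and the mean log2 ratio differed by -2.11. The ratio of MSTRG.4613 to the alpha locus MSTRG.4614 was 0.861, 0.733 and 0.643 in CG and 1.35, 1.69 and 1.72 in HG, a log2 difference of 1.09. The ratio of MSTRG.4620 to MSTRG.4614 was 3.97, 6.08 and 5.80 in CG and 2.65, 2.49 and 2.55 in HG, a log2 difference of -1.02. For all 3 ratios p was 0.1 by the exact permutation test, the smallest possible. Without CG-1 the log2 differences were -2.41, 1.2 and -1.21 in the same order. CG-1, rich in haemoglobin, lay between the other CG libraries and HG in all 3 ratios. Beta chains of one cluster can be near-identical, and how reads were split between copies is not given in the sources used here.

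**Figure D3:**
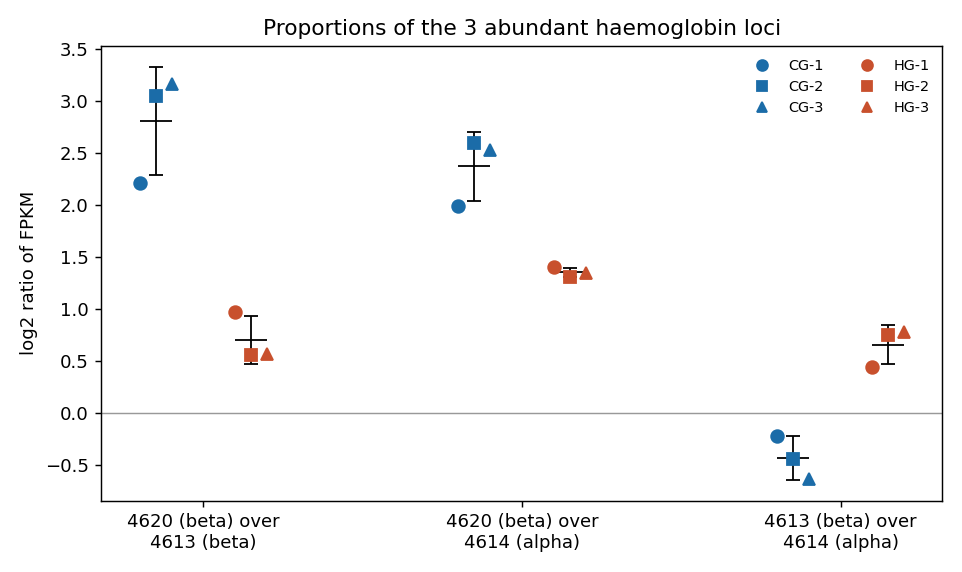
Log2 ratios of FPKM between the 3 abundant haemoglobin loci in each library, with the mean and SD of 3 libraries in black (blue CG, red HG). In all 3 ratios the groups are apart, and MSTRG.4620 falls from 4.62 to 9.02 times MSTRG.4613 in CG to 1.48 to 1.96 times in HG.

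Other genes listed for red and erythroid cells were read next, since they are not globins. Whether the RNA of each of them came from red cells was not tested. Of 27 loci of red cell and erythroid genes, 19 were tested, 3 were higher and 1 was lower in HG (8.27% and 12.1% of all tested loci), with a median difference of 0.51 against -0.14 for all loci. The higher loci were cahz, a red cell carbonic anhydrase in zebrafish, klf1, a transcription factor of erythroid genes, and rhag, an ammonia channel of the red cell membrane. cahz stood at 4.05, 0.450 and 2.60 FPKM in CG and 13.6, 11.2 and 8.63 FPKM in HG (log2 difference 2.01, SE 0.46, adjusted p = 0.0265 by limma). klf1 (MSTRG.16690) was higher by 1.25 (SE 0.31, adjusted p = 0.0331) and rhag (MSTRG.8828) by 1.5 (SE 0.41, adjusted p = 0.0436, limma). Another tested rhag locus, MSTRG.8827, stood at 0, 1.05 and 1.97 FPKM in CG and 11.9, 0 and 6.10 FPKM in HG. Its groups overlapped and it did not pass (adjusted p = 0.358 by limma). The lower locus joined kel, a blood group protease, to its neighbour zyx, which encodes the adhesion protein zyxin, and fell by 2.71 (SE 0.33, adjusted p = 0.00367 by limma), so the 2 genes cannot be told apart.

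CG-1 stood above CG-2 and CG-3 in several of these genes, as it did in haemoglobin. alas2, the first enzyme of haem synthesis in red cells, stood at 16.3, 1.85 and 3.69 FPKM in CG and 24.8, 14.2 and 11.5 FPKM in HG (log2 difference 1.47, adjusted p = 0.159 by limma). gata1a, the master factor of red cell genes, stood at 6.41, 1.39 and 2.09 FPKM in CG and 8.64, 4.99 and 6.40 FPKM in HG (0.99, adjusted p = 0.153 by limma). In both genes CG-1 lay within the HG range. slc4a1a, the anion exchanger of the red cell membrane, had a difference of 0.11 (log2, adjusted p = 0.856 by limma). The count of higher loci was 6 without CG-1, 1 without CG-2, HG-2 or HG-3, and 0 without CG-3 or HG-1. Without a minimum level the count was 0. At a mean of at least 10 FPKM it was also 0, since cahz, klf1 and rhag were then not tested. The median difference of the loci left was -0.94. The summed level of the list ranged from 85.3 to 257 FPKM in CG, highest in CG-1, and from 109 to 174 FPKM in HG. The largest parts of the CG sums came from tfr1a (MSTRG.16171) and the joined kel locus. tfr1a stood at 140, 32.4 and 91.9 FPKM in CG and 59.0, 23.5 and 40.9 FPKM in HG, and did not pass. The joined locus stood at 42.6, 25.6 and 19.1 FPKM in CG and 4.61, 2.99 and 2.74 FPKM in HG. The CG sums therefore mostly follow these loci rather than the list as a whole. In HG these loci held the smaller part of each sum, so the sums of the groups do not compare the same genes.

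Downstream of erythropoietin, the receptor was weakly expressed. epor stood at 1.68, 0.702 and 1.70 FPKM in CG and 5.24, 3.71 and 2.10 FPKM in HG. The groups did not overlap, and the difference of 0.96 (log2, SE 0.33) did not pass (adjusted p = 0.0802 by limma). Of 15 tested loci of erythropoietin signaling, none was higher and 4 were lower (8.27% and 12.1% of all tested loci). The median difference was -0.42, against -0.14 for all loci. BCL2L1 (1 of many) (MSTRG.20664), a copy of the gene of the survival protein BCL-XL, stood at 35.7, 22.3 and 23.0 FPKM in CG and 5.11, 5.41 and 1.31 FPKM in HG, and fell by 2.61 (SE 0.44, adjusted p = 0.00966 by limma). The named copy bcl2l1 had a difference of -0.01 (adjusted p = 0.983 by limma).

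The other lower loci encode inhibitors of cytokine receptors. socs2 fell by 1.0 (adjusted p = 0.0228), and the socs3b loci MSTRG.4323 and MSTRG.4322 fell by 1.60 (adjusted p = 0.0378) and 1.04 (adjusted p = 0.039, limma). These act on many cytokine and growth hormone receptors besides that of erythropoietin. The kinase genes jak2a and jak2b had differences of 0.10 and -0.42, and stat5a and stat5b of -0.71 and -0.25, and none of the 4 passed. The count of lower loci was 2 without CG-1 or HG-2 and 1 without CG-3, HG-1 or HG-3, and only BCL2L1 (1 of many) was lower with each library left out in turn.

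Upstream of erythropoietin lie the HIF subunits and the enzymes that mark them for destruction. Of 12 tested loci of this oxygen sensing list, 4 were lower and none was higher (12.1% and 8.27% of all tested loci). The median difference was -0.66, against -0.14 for all loci. The lower loci egln3, egln2 and egln1a encode prolyl hydroxylases, the oxygen-dependent enzymes that act on HIF alpha subunits, and egln1a and egln3 are known as HIF targets themselves. egln3 stood at 375, 212 and 239 FPKM in CG and 2.61, 1.81 and 1.86 FPKM in HG and fell by 6.45 (SE 0.28, adjusted p = 0.000369 by limma). This locus is also counted in the list of HIF target genes above. egln2 fell by 3.24 (SE 0.29, adjusted p = 0.00148) and egln1a by 1.86 (SE 0.23, adjusted p = 0.00346, limma). The other was arnt2, a HIF beta subunit, which fell by 1.24 (SE 0.32, adjusted p = 0.0381 by limma). The arnt2 call was lost without any single library other than HG-2 (adjusted p up to 0.106), while the 3 hydroxylase loci passed with each library left out.

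The HIF alpha genes themselves did not pass. hif1aa had a difference of -0.51, hif1al of -0.48 and epas1b, which encodes HIF-2 alpha, of -0.82, with adjusted p of 0.246, 0.25 and 0.314 by limma. vhl, whose product carries HIF alpha to degradation, had a difference of -0.80 (adjusted p = 0.159 by limma). hnf4a and gata4, factors that act at the erythropoietin gene in mammals, had differences of -0.42 (adjusted p = 0.205) and -0.51 (adjusted p = 0.0929, limma).

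**Figure D4:**
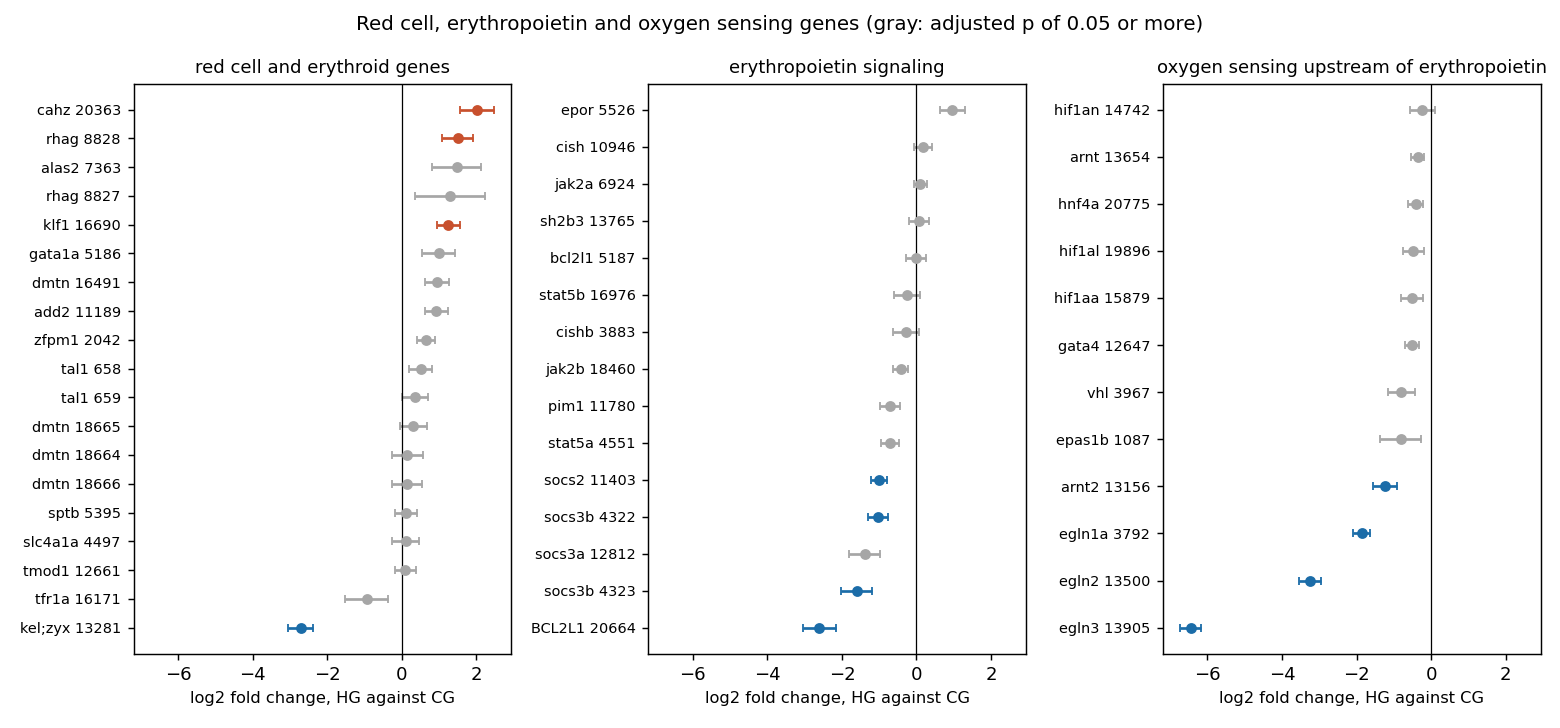
Log2 fold change (HG against CG) with its standard error for each tested locus of 3 lists, labelled with gene name and locus number. Red and blue points passed at an adjusted p under 0.05 (higher and lower) and gray points did not: 3 of 19 red cell loci are higher and 1 lower, and 4 of 15 erythropoietin signaling loci and 4 of 12 oxygen sensing loci are lower, with egln3 at -6.45.

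The list of globin partners held cytochrome b5 and its reductases, a family with members that keep globin iron reduced. Of 5 tested loci 1 was higher (8.27% of all tested loci), and whether its product acts on globins was not tested. cyb5r2, a cytochrome b5 reductase, stood at 76.0, 170 and 95.2 FPKM in CG and 315, 337 and 476 FPKM in HG (log2 difference 1.78, SE 0.35, adjusted p = 0.0156 by limma). The call was lost without HG-3 (adjusted p = 0.054). cyb5r3, cyb5r4, cyb5a and cyb5b had differences between -0.48 and 0.18 and did not pass.

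Of the genes that clear free haemoglobin and haem, 1 of 13 tested loci was higher and 2 were lower, close to the 8.27% and 12.1% of all tested loci. hpx encodes hemopexin, the haem-binding plasma protein, and stood at 20254, 19836 and 22731 FPKM in CG and 8625, 7890 and 5600 FPKM in HG. It fell by 1.53 (SE 0.20, adjusted p = 0.0041 by limma). hmox2a, a haem oxygenase, fell by 1.60 (SE 0.43, adjusted p = 0.0411). A copy of hp, the haemoglobin-binding haptoglobin (MSTRG.15428), was higher by 0.83 (SE 0.20, adjusted p = 0.0333, limma). The other tested hp loci lay on the other side and did not pass. MSTRG.8136 had a difference of -0.84 (adjusted p = 0.54) and MSTRG.8137 of -1.08 (adjusted p = 0.14, limma). MSTRG.8136 stood at 231, 1566 and 851 FPKM in CG and 548, 120 and 811 FPKM in HG. Without the minimum level the calls of hpx (adjusted p = 0.335), hmox2a (adjusted p = 0.09) and the hp locus MSTRG.15428 (adjusted p = 0.183, limma) were all lost. The calls of hmox2a and of the hp locus MSTRG.15428 were each lost when any of several single libraries was left out, with adjusted p up to 0.117 and 0.0996.

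Since myoglobin is a muscle protein elsewhere, the striated muscle markers were read beside it. Of 44 loci of skeletal and heart muscle, 35 stayed under 1 FPKM in every library and 7 were tested. ckma, the muscle creatine kinase, stood at 0.420, 0.718 and 0.555 FPKM in CG and 0.407, 0.186 and 0.595 FPKM in HG. ckma was named after its values were seen, and the cell source of Mb was not tested. The tested loci actn3a, ACTA1 and tpm2;rab8a (1 of many), the last joined to another gene, peaked at 5.59, 2.86 and 7.74 FPKM and did not pass. The most abundant muscle loci were eno3, at 278 to 431 FPKM in CG and 279 to 471 FPKM in HG, and tpm2, which is also made in smooth muscle and fell by 1.13 (adjusted p = 0.0208 by limma). myhz1.2, a fast myosin, was higher by 1.34 (adjusted p = 0.0445), and tnnt2a, a heart troponin, fell by 1.44 (adjusted p = 0.0245, limma), from 1.49 to 3.78 FPKM in CG to 0.114 to 0.246 FPKM in HG. Each of these 3 muscle calls was lost when one of several single libraries was left out, with adjusted p up to 0.0702 for tpm2, 0.106 for myhz1.2 and 0.0641 for tnnt2a.

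Markers of the other cells of a liver sample were read beside the members, against 8.27% of all tested loci higher and 12.1% lower. The hepatocyte list had 4 of 19 tested loci higher and 1 lower. Its summed level was 52811 to 71662 FPKM in CG and 66416 to 82128 FPKM in HG, as a liver sample has. The lower locus was hpx, also counted above among the genes that clear haem. hpx held 19836 to 22731 FPKM of the CG sums and 5600 to 8625 FPKM of the HG sums. These sums therefore mix its fall with the levels of the other hepatocyte loci. Endothelial markers were lower at 6 of 10 tested loci, with a summed level of 58.7 to 67.9 FPKM in CG and 24.7 to 29.5 FPKM in HG. With 1 library left out the count was 3 to 5, lowest without HG-1. Markers of stellate cells and fibroblasts, the cells known for cytoglobin, were lower at 2 of 10 tested loci, with 34.6 to 43.3 FPKM in CG and 13.4 to 19.5 FPKM in HG, and the count was 1 to 3 with 1 library left out, being 1 without CG-3 or any single HG library. The lower loci were rgs5b, which fell by 3.47 (adjusted p = 0.00173), and rgs5a, which fell by 0.95 (adjusted p = 0.0341, limma). rgs5b alone stood at 21.0, 16.1 and 9.62 FPKM in CG and 0.0441, 0.555 and 0.804 FPKM in HG. The tested loci of this list that did not pass lay on both sides, from -1.05 for lrata to 0.92 for col1a1b. Exocrine pancreas markers were lower at 8 of 11 tested loci, with 3026 to 6301 FPKM in CG and 307 to 1653 FPKM in HG, led by trypsin (try, 1764 to 3638 FPKM in CG). That count was 9 without HG-3, 3 without CG-1, 2 without CG-2 or HG-2, and 1 without CG-3 or HG-1. Macrophage and neutrophil markers were lower at 3 of 20 tested loci, near the share of all loci, with a median difference of -0.03, and the count was 1 without CG-2, CG-3, HG-1 or HG-2. The part of these cells in the lower Mb, epoa and hbbe2 levels was not tested.

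Across the 6 libraries, the named genes most like Mb in log2(FPKM + 1) were tor3a, srsf5b, riok3, si:dkey-10f23.2 and shisa4, with Pearson's r of 0.996 to 1.0. tor3a stood at 67.5, 82.7 and 62.1 FPKM in CG and 7.58, 5.15 and 7.82 FPKM in HG. Those most like epoa were mafb, ube2kb, USF2 (1 of many), stox1 and polk, with r of 0.988 to 0.992. These r are descriptions over 6 libraries in 2 groups that share the contrast, so any gene that differs strongly between the groups scores high. In the same sense Mb and epoa had an r of 0.97, Mb and hbbe2 of 0.94, and Mb and the 3 abundant haemoglobin loci of -0.88 to -0.77, while those 3 had r of 0.98 to 1.0 with each other.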

How the data were processed

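Liver RNA of 6 libraries (3 CG, 3 HG, 96 h) was used. The authors mapped paired reads with HISAT and assembled them with StringTie (versions and genome build not given in the sources used here) and deposited FPKM per locus, used here as deposited. Read counts were not used. The summed FPKM ranged from 459912 to 493870 per library. The lowest FPKM values gave CG-1 a depth 1.07 to 1.41 times that of each other library. Of the 15 pairs compared in this way, 1 (CG-2 against HG-1, 2.38) contradicts the others and rests on 10 loci. Intervals for counting error could not be given.

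Loci averaging 1 FPKM or more were tested as log2(FPKM + 1) with R 4.3.3 and its package limma 3.58.1 (variance trend, two-sided), with Benjamini-Hochberg adjustment. Ratios were compared by exact permutation over libraries. The test was also run on simulated data with independent noise at each locus. That simulation does not cover deviations that many loci share within a library. Tables were made with pandas 2.3.3, numpy 2.4.6 and scipy 1.17.1 and plots with matplotlib 3.10.9, all in Python 3.11.15. Genes named are the members, loci annotated with oxygen transport or the haemoglobin complex, all tested loci of the red cell, erythropoietin signaling, oxygen sensing and globin partner lists, up to 3 loci a direction in each other list, and the 5 most like Mb and epoa. A few further list members, such as ckma, were named after their values were seen. The members and lists were chosen with earlier results of these data known. Of the loci annotated with oxygen transport, 2 without a symbol were under the minimum. Alternatives were a minimum mean of 10 FPKM or none, pseudocounts of 0.5 and 0.1, 3 scalings, limma without trend or robust, a Ballgown-style model, a replicate block and leaving out each library. Of the FPKM columns, all were used.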

Additional observations from a re-analysis of the deposited data

How the results depend on the processing

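The lower calls of Mb, epoa and hbbe2 held under each alternative but the Ballgown-style models (epoa has no value at a mean of at least 10 FPKM), with log2 differences of -5.66 to -4.98, -3.62 to -2.16 and -5.26 to -2.94. cygb1 passed in none (-1.42 to -0.42). The Ballgown-style model tests each locus alone on few degrees of freedom and called 0 loci (0 higher, 0 lower) and 0 members. Counts of called loci over the whole table, here and in the next paragraph, also required a log2 difference of at least 1. Counts of members did not. By that rule limma called 2722 loci, and it had 6016 at an unadjusted p under 0.05. Under that model Mb was -5.66 (adjusted p = 0.12), hbbe2 -3.16 (0.361), epoa -3.08 (0.138), MSTRG.4613 6.25 (0.282) and MSTRG.4614 4.86 (0.353). Its library size was summed over the tested loci. A version with library size over all loci was added after this result and an earlier count for these data had been seen. It called 2 loci (2 higher, 0 lower) and 0 members, with Mb -5.57 (0.0628), hbbe2 -3.49 (0.21), epoa -2.81 (0.0998), MSTRG.4613 5.43 (0.21) and MSTRG.4614 4.18 (0.268).

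The sums and ratios of haemoglobin without CG-1 were added after the data were seen. A mean of at least 10 FPKM left 1143 called loci (529 higher, 614 lower), from fewer tested. Leaving out a library gave 1583 to 2352 (781 to 958 higher, 802 to 1394 lower), lowest without HG-1. The same omissions gave 3.82 to 5.86 for MSTRG.4613, 2.74 to 4.67 for MSTRG.4614 and 1.84 to 3.48 for MSTRG.4620 (adjusted p 0.0104 to 0.203). Without a minimum, MSTRG.4613 (4.59, adjusted p = 0.0649) and MSTRG.4614 (3.51, 0.107) did not pass, nor did MSTRG.4614 after quantile normalization (3.44, 0.0537). MSTRG.4620 passed at a mean of at least 10 FPKM (2.50, 0.0467). The cause was not tested.

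Same-numbered libraries did not deviate together (r of 0.0365, -0.102 and -0.081), so the numbers were not taken as pairs. With the replicate block MSTRG.4620 passed (2.50, adjusted p = 0.0337) and erythropoietin signaling had 1 lower locus rather than 4.

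Signs that turned all belong to differences that did not pass. After median-of-ratios scaling, quantile normalization and upper quartile scaling bcl2l1 was 0.11, 0.08 and 0.12 and cyb5a 0.11, 0.07 and 0.12. Under the Ballgown-style model rhag (MSTRG.8827) was -0.53, stat5b 0.17, bcl2l1 0.41 and cyb5a 0.05. With each library left out in turn, the ranges were -0.05 to 0.27 for tmod1, -0.18 to 0.55 and -0.32 to 0.43 for 2 loci of dmtn (1 of many), -0.11 to 0.45 for slc4a1a, -0.1 to 0.38 for sptb, -0.02 to 0.37 for cish, -0.12 to 0.31 for sh2b3, -0.19 to 0.18 for bcl2l1, -0.18 to 0.03 for cyb5a and -0.08 to 0.3 for cyb5b.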
